A study of Mus musculus with 29 samples.

Results

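The 39 Hox genes were followed across 29 RNA sequencing libraries of mouse nephron progenitors (NPCs), the kidney's cap mesenchyme, which expresses Six2 and forms the nephrons. Members were every symbol made of Hox, a cluster letter from a to d and a paralogue number, 39 of 23918 symbols in the deposited table. There were 11 in the Hoxa cluster, 10 in Hoxb, 9 in Hoxc and 9 in Hoxd. The unit is RPKM, a read number scaled to the length of the transcript and the size of the library, so levels can be compared between genes.

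All cells came from mice of a C57BL/6 and 129 hybrid background carrying Six2-GCE, an allele that drives a green fluorescent protein and inducible Cre fusion from the Six2 locus, so every group shares it. The E12.5 kidney cells labelled Six2-negative gave 2 libraries, the NPC lines 8 and the freshly isolated (primary) NPCs 10. Primary NPCs had 2 libraries at each of 5 ages, from embryonic days E11.5, E12.5 and E13.5 through E16.5 to P1, the first day after birth. The line of each age other than E12.5 grew as aggregates in NPSR medium and gave 1 library at passage 20 (P20) and 1 at passage 80 (P80). A further 9 libraries, labelled E13.5 and made from total RNA, came from cultures kept for 4 or 8 days without 1 component, either BMP7, heparin, CHIR (a GSK3 inhibitor) or Y27632 (a ROCK inhibitor), or for 8 days without LIF. They had 1 library per condition, and no library of complete medium is labelled among them. No label ties replicates to different animals or cultures. The p-values therefore reflect only how these libraries vary, and some of that variation may be technical.

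Hox genes encode homeodomain transcription factors that give cells their position along the head to tail axis. In each cluster the genes lie in order of paralogue number, low numbers are used towards the head and early, and high numbers towards the tail and later. Most bind DNA with partners of the Pbx and Meis families, and their silent and active states are held by Polycomb and MLL complexes. In the mouse kidney the paralogues Hoxa11, Hoxc11 and Hoxd11 act together with Eya1 and Pax2 in metanephric mesenchyme to switch on Six2 and Gdnf, and mice that lack all of them form no kidney.

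The promoters of 4 members that the results turn on are shown because their genes behaved differently in these libraries. Hoxb1 and Hoxd12 fell with age in primary NPCs, Hoxb8 fell in the lines, and Hoxd10 stayed among the most abundant members throughout. Each is the 250 bases before the gene's start, from RefSeq on GRCm38.p6, plus strand, 5′ to 3′. Capitals mark matches on either strand to TGATNNAT, a motif bound jointly by Pbx and Hox proteins.
Hoxb1 promoter: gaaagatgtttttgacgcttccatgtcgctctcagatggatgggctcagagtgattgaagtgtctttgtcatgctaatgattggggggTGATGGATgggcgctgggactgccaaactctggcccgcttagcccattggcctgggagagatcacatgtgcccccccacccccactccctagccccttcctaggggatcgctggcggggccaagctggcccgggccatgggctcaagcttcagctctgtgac
Hoxb8 promoter: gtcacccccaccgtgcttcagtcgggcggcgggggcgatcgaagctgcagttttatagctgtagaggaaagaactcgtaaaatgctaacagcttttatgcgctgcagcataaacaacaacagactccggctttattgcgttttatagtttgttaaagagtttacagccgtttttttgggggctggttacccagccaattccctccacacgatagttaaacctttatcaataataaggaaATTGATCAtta
Hoxd12 promoter: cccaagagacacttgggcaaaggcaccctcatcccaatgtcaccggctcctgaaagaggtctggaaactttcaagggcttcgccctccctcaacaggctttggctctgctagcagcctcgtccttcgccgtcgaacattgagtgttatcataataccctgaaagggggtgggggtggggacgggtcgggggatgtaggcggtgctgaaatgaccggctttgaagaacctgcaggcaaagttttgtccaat
Hoxd10 promoter: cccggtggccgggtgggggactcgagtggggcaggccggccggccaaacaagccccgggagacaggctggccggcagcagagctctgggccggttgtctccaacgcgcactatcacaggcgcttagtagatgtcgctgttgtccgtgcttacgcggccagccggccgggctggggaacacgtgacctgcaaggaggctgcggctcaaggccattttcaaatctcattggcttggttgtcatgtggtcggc
They lie at chr11:96365508-96365757, chr11:96281655-96281904, chr2:74674763-74675012 and chr2:74691641-74691890 in the order shown. Hoxb1, whose expression in the mouse hindbrain is maintained through upstream Pbx and Hox sites, held 1 match, as did Hoxb8. No match was in the Hoxd12 or Hoxd10 window. RefSeq windows were matched for 22 members, giving 24 windows, of which 4 (16.7%) held the motif, against 7.68% of all 32851 windows. The motif GGCGCC, a palindrome bound by SMAD proteins downstream of BMP, was in 5 (20.8%) of the 24, against 9.59% of all windows. It cannot share letters with the Pbx and Hox motif, and it was in none of the 4 windows shown. The median Hox window had 58.6% G and C, against 52.4% over all windows. The windows of Hoxb1, Hoxb8, Hoxd12 and Hoxd10 held 7, 12, 10 and 20 CpG dinucleotides. A match describes the letters in these windows and not binding.

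On the mm9 build, the Hoxa genes span 106 kb of chromosome 6 (52105366 to 52210874), and the Hoxc genes 116 kb of chromosome 15 (102751534 to 102867274). The Hoxd genes span 96.8 kb of chromosome 2 (74506367 to 74603200). Hoxb1 to Hoxb9 span 96.8 kb of chromosome 11 (96132771 to 96229570), with Hoxb13 apart at 96055630 to 96058761. In that annotation 26 members overlap another gene, 13 of them on the other strand, as Hoxa11 does with its antisense transcript Hoxa11os. Whether counting used the strand is not given in the sources used here, so overlapping transcripts cannot be told apart.

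The libraries were checked against their labels first. Six2 had 7.35 and 3.45 RPKM in the Six2-negative libraries, against 117 to 299 RPKM in primary NPCs, and was at 233 to 329 RPKM in the lines and 74.2 to 251 RPKM in the withdrawal libraries. All 9 cap mesenchyme markers were at 1 RPKM or more in every primary NPC library, and 8 of the 9 in every line library. Estimated from the spacing of low values, the depth in M reads was 20.38 and 32.4 in Six2-negative cells, 6.59 to 24.2 in lines, 11.6 to 32.4 in primary NPCs and 6.62 to 16.8 in withdrawal libraries. The library labelled P1 line at P80 stands apart from its label. Over the Hox genes its log2 values correlated at 0.969 to 0.987 with the E11.5 and E13.5 lines, at 0.855 to 0.866 with the E16.5 line and at 0.886 with the P1 line at P20. These are correlations across genes, which are not independent replicates. The Y-linked gene Eif2s3y had 0.038 RPKM in that library and 0.523 in the P1 line at P20. It had 0.029 RPKM in the E13.5 line at P80 and 13.9 RPKM at P20, and 7.85 to 36.1 RPKM in the other 4 line libraries. Line results are therefore also given without the P1 line at P80 or with the P1 line represented by P20 alone.

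Primary NPCs used all 4 clusters. Of the 39 members, 31 were at 1 RPKM or more in every primary NPC library and 18 in all 29 libraries. Hoxa13, Hoxb13, Hoxc12 and Hoxc13, which lie at the tail end of their clusters, were under 1 RPKM in every library. The other 17 reached 1 RPKM in some libraries. Summed over each cluster, primary NPCs held 265 to 402 RPKM of Hoxa, 352 to 557 RPKM of Hoxb, 185 to 283 RPKM of Hoxc and 254 to 314 RPKM of Hoxd transcripts. The sums are levels of transcript in a bulk sample, in which fewer cells of a type and less RNA per cell cannot be told apart.

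The most abundant members in primary NPCs belonged to the 10 paralogues and to Hoxb. Hoxa10, which patterns the lumbar region and the uterus, had a lowest, median and highest value of 82.4, 128 and 162 RPKM over the 10 libraries. Hoxc10, which marks lumbar motor neurons, ran through 88.8, 124 and 145 RPKM. Hoxd10 ran through 88.4, 101 and 118 RPKM, so the ranges of the 3 paralogues overlap. Hoxb6, a gene of the middle of its cluster, was the highest Hoxb member by median, at 54.2, 100 and 131 RPKM. Of the kidney-determining 11 paralogues, Hoxa11 was at 48.3 to 93.2 RPKM and Hoxd11 at 29.3 to 65.3 RPKM. Hoxc11 was lower than both in every primary library, at 5.33 to 15.6 RPKM. The heat map of all members by library shows these levels side by side.

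E12.5 kidney cells labelled Six2-negative were compared with E12.5 NPCs, which asks which Hox genes mark the progenitors within the kidney of 1 age. Among the 35 members with at least 1 RPKM in at least 2 libraries, 11 fell and 1 rose in Six2-negative cells by limma with Benjamini-Hochberg adjustment over 13574 genes. Over all genes tested 13.6% were called, 4.32% lower and 9.28% higher. The Hoxb cluster held 6 of the 12 calls, Hoxb1 included, among 9 tested. Beside it were 3 of 10 Hoxa (Hoxa9, Hoxa10 and Hoxa11), 2 of 7 Hoxc and 1 of 9 Hoxd genes (Hoxd13). The median log2 fold change of the tested members was −0.26, against 0.02 over all genes. Hoxb1 reached 1 RPKM in primary NPC libraries alone and Hoxd13 in Six2-negative ones alone, so both entered the fit through the side where they are high, and their values are given as a description. Without them 10 of 33 members were called, all lower. The calls of Hoxa11, Hoxb2 and Hoxb9 held under every alternative run. That of Hoxb1 held too, which adds no support because of how it entered the fit. Each of the other 8 was lost under 1 to 4 alternatives.

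Hoxb1, a hindbrain patterning gene, differed most. It had 0.497 and 0.304 RPKM in Six2-negative cells, against 12.45 and 16.9 RPKM in E12.5 NPCs. The groups do not overlap, and the log2 fold change on the log2(RPKM + 1) scale was −3.47 ± 0.41 (SE, n = 2 each). Its neighbour Hoxb2 had 30.5 and 20.9 RPKM in Six2-negative cells, against 95.7 and 84.7 RPKM in NPCs (−1.79, limma adjusted p = 0.002735). Hoxa11 had 31.8 and 36.9 RPKM in Six2-negative cells, against 73.4 and 76.3 RPKM in NPCs (−1.11, limma adjusted p = 0.004859). For both, each Six2-negative library was below each NPC library.

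Hoxa10 had 79.6 and 67.7 RPKM in Six2-negative cells, against 147 and 162 RPKM in NPCs, and fell by 1.06 on the log2 scale. Hoxb9, which shapes the rib cage with its paralogues, had 27.8 and 24.5 RPKM in Six2-negative cells, against 53.0 and 61.7 RPKM in NPCs, and fell by 1.103. Hoxb4, Hoxa9, Hoxb5, Hoxb3, Hoxc9 and Hoxc6 also fell, with log2 fold changes of −1.06, −1.05, −1.03, −0.95, −0.73 and −0.61. Hoxb4 had 15.5 and 9.81 RPKM in Six2-negative cells, against 26.8 and 26.8 RPKM in NPCs. Hoxa9 had 34.7 and 26.5 RPKM in Six2-negative cells, against 65.8 and 62.0 RPKM in NPCs. Hoxb5 had 27.5 and 18.1 RPKM in Six2-negative cells, against 53.8 and 40.1 RPKM in NPCs. For each of these genes the groups were separate. The plot of fold changes by paralogue number places the calls along each cluster.

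Hoxd13, a gene of digits and the genital tubercle, had 2.79 and 2.48 RPKM in Six2-negative cells, against 0.314 and 0.535 RPKM in NPCs, a log2 difference of 1.35. The remaining 10 and 11 paralogues did not pass. Their log2 fold changes and limma adjusted p-values were −0.62 and 0.07098 for Hoxc10, −0.42 and 0.05405 for Hoxd10, −0.26 and 0.4735 for Hoxc11, and −0.38 and 0.2811 for Hoxd11.

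Markers of other cells moved with this comparison. The 12 stroma markers summed to 1006 to 1326 RPKM in Six2-negative cells, against 135 to 169 RPKM in E12.5 NPCs. The 10 ureteric bud markers summed to 305 to 418 RPKM in Six2-negative cells, against 17.9 to 40.1 RPKM in NPCs. The 9 erythroid markers summed to 6282 to 16581 RPKM in Six2-negative cells, against 59.1 to 95.6 RPKM in NPCs. The 8 endothelial markers summed to 148 to 192 RPKM in Six2-negative cells, against 11.48 to 110 RPKM in NPCs. The 9 cap mesenchyme markers summed to 82.0 to 91.4 RPKM in Six2-negative cells, against 918 to 928 RPKM in NPCs. None of these markers was at 0 in both libraries of a group, and their part in the Hox result was not tested. The count of called members was 6 or 5 without the first or second E12.5 library and 4 without the second Six2-negative library.

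Genes that work with Hox proteins were counted from fixed lists, to be read beside the shares of all genes given above for this comparison. Of 9 cofactor genes 3 rose and 1 fell in Six2-negative cells. Pknox2 and Meis1 rose by 1.20 and 0.59, and Pbx2 fell by 0.57. Of 22 Polycomb genes 4 fell and none rose, among them Phf19 (−3.53) and Bmi1 (−1.62). Bmi1 had 14.8 and 6.94 RPKM in Six2-negative cells, against 26.4 and 42.4 RPKM in E12.5 NPCs. Primary NPCs of other ages had 7.65 to 28.9 RPKM of it, so the E12.5 libraries were themselves high. None of 9 MLL and demethylase genes passed by limma. Of 9 kidney partners and targets of the 11 paralogues 8 fell and 1 rose, with Six2 at −5.25, Eya1 at −4.88 and Osr1 at −3.55. The groups are labelled by Six2, so its fall was fixed in advance. Six2, Eya1, Osr1, Gdnf and Itga8 are also among the cap mesenchyme markers, so this count is a description of the cells compared. Of 5 cluster non-coding RNAs that could be tested, Hoxa11os fell by 1.23, at 26.4 and 36.2 RPKM in Six2-negative cells, against 73.6 and 74.1 RPKM in NPCs. Of 9 other trunk homeobox genes 3 rose and 6 fell, with Uncx at −4.86 and Emx2 at 3.30. The Cdx genes, upstream regulators of Hox genes in the embryo's trunk, did not reach the filter in any fit.

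Across the 5 ages of primary NPCs, 11 of the 35 tested members differed by limma's moderated F test, when 24.5% of all genes did. Among them were Hoxa2, Hoxb1, Hoxb6, Hoxc4, Hoxc8, Hoxc11, Hoxd3, Hoxd4, Hoxd9 and Hoxd12. This asks whether the Hox code of the progenitors is fixed once they form or moves as they age. The count turned on single libraries: without the first or second E11.5 library the F test called 2 or 4, without either E13.5 library 3 or 4, and without the first E16.5 or the first P1 library 7 or 4.

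The clearest course was that of Hoxb1. It had 9.34 and 12.9 RPKM at E11.5, 12.45 and 16.9 RPKM at E12.5 and 1.82 and 6.404 RPKM at E13.5. At E16.5 it had 0.238 and 0.271 RPKM, and at P1 0.242 and 0.732 RPKM. Its levels at E16.5 and P1 lie below every level at the 3 younger ages. Hoxb1 reached 1 RPKM at those 3 ages alone and entered the fit through them, so its F test call is given as a description. Hoxc8, which patterns the thoracic region, took the other course. It had 12.48 and 11.3 RPKM at E11.5, 21.1 and 15.8 RPKM at E12.5, 11.7 and 10.6 RPKM at E13.5, 10.9 and 11.8 RPKM at E16.5 and 32.9 and 32.6 RPKM at P1 (F test, limma adjusted p = 0.004549). It was highest at P1, above every younger library. The plot of RPKM by age shows both courses.

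**Figure D1:**
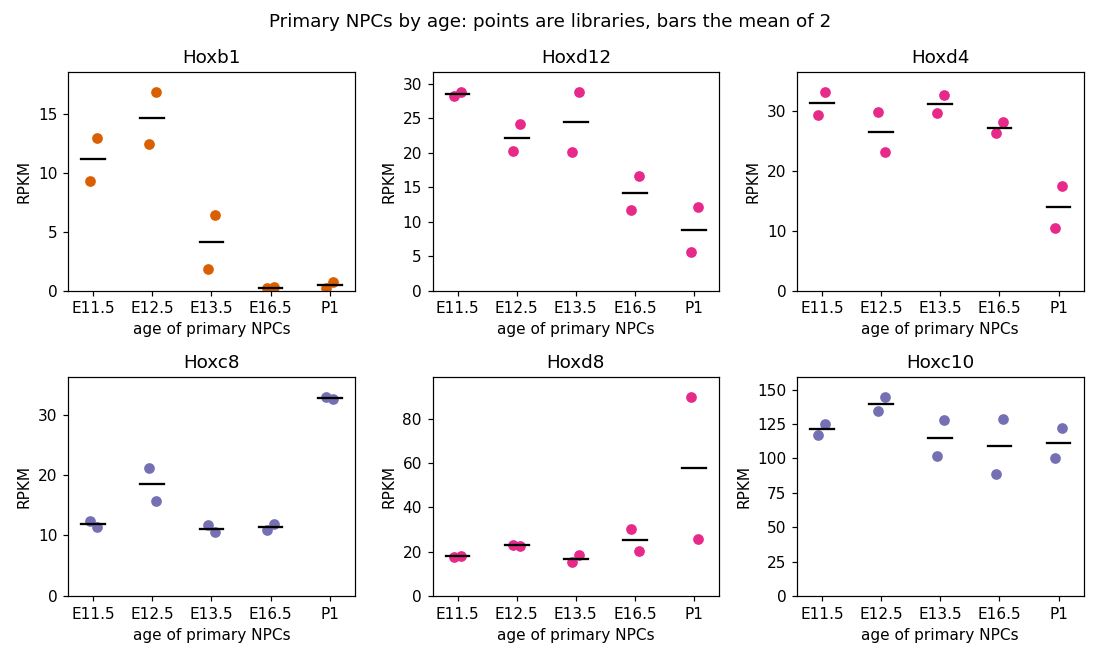
RPKM in each primary NPC library by age for Hoxb1, Hoxd12, Hoxd4, Hoxc8, Hoxd8 and Hoxc10, with a point per library and a bar for the mean of 2. Hoxb1 is under 1 RPKM in all libraries at E16.5 and P1, Hoxc8 is at 32.9 and 32.6 RPKM at P1, and the 2 P1 points of Hoxd8 lie far apart.

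P1 NPCs differed from E11.5 NPCs in 12 of 35 members, 8 lower and 4 higher, when 35.1% of all genes were called (17.7% lower, 17.5% higher), so the share of members, 34.3%, lies near that of all genes. Under quantile scaling 37.3% of all calls were higher, against 49.7% without it. By cluster the calls were 6 of 9 Hoxd, 3 of 7 Hoxc, 2 of 9 Hoxb and 1 of 10 Hoxa genes. The Hoxd calls went both ways, with Hoxd3, Hoxd4, Hoxd11 and Hoxd12 lower and Hoxd8 and Hoxd9 higher. Those of Hoxd8, Hoxd9 and Hoxd11 were lost under 3 or 4 alternatives, so no lean to a cluster is read from these counts. Hoxb1, 1 of the 12, fell by 3.03 ± 0.41 on the log2 scale (SE, n = 2 each). It reached 1 RPKM at the younger ages alone, so its value is given as a description. Hoxd12, a digit patterning gene, had 5.62 and 12.1 RPKM at P1, against 28.2 and 28.8 RPKM at E11.5 (−1.66, limma adjusted p = 0.007513). Hoxd4 had 10.5 and 17.5 RPKM at P1, against 29.4 and 33.2 RPKM at E11.5 (−1.15, limma adjusted p = 0.006372). Hoxd3 had 6.64 and 8.40 RPKM at P1, against 17.0 and 18.4 RPKM at E11.5 (−1.14, limma adjusted p = 0.005258). The last pair are neighbours at the head end of the Hoxd cluster, and their P1 values were all below their E11.5 values.

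All 3 of the 11 paralogues fell between E11.5 and P1. Hoxa11 had 48.3 and 59.1 RPKM at P1, against 75.2 and 86.3 RPKM at E11.5 (−0.58, limma adjusted p = 0.03148). Hoxd11 had 29.3 and 42.7 RPKM at P1, against 54.3 and 60.5 RPKM at E11.5 (−0.68, limma adjusted p = 0.03402). Hoxc11 had 7.16 and 10.5 RPKM at P1, against 13.49 and 15.6 RPKM at E11.5 (−0.68, limma adjusted p = 0.03721). The libraries of the 2 ages did not overlap for any of them, while the changes are under 1 on the log2 scale. Each of these calls was lost without either E11.5 library or without the first P1 library, and each under 1 further alternative, quantile scaling for Hoxa11 and Hoxd11 and no filter for Hoxc11. The 10 paralogues did not pass, at −0.45 for Hoxa10, −0.13 for Hoxc10 and −0.13 for Hoxd10. Hoxb6 fell by 0.75.

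Of the members that rose at P1, Hoxc8 had the largest tested change that does not turn on 1 library, 1.39 ± 0.18 (SE, limma adjusted p = 0.001792). Hoxd8 had 89.995 and 25.9 RPKM at P1, against 17.8 and 18.1 RPKM at E11.5, with the same fold change of 1.39 but an SE of 0.46 (limma adjusted p = 0.04531). Without the first P1 library its fold change was 0.51 and the limma adjusted p 0.1614. Hoxc4 and Hoxd9 rose by 0.66 and 0.58. Between P1 and E16.5 NPCs 7 members were called, 4 higher and 3 lower, when 6.48% of all genes were (2.73% higher, 3.74% lower). Of all calls 42.2% were higher, and 53.4% under trimmed-mean scaling. Hoxc8 rose by 1.45, Hoxc4 by 0.96, Hoxa2 by 0.91 (limma adjusted p = 0.04805, a call lost under 8 alternatives) and Hoxd9 by 0.72, while Hoxb6 fell by 1.03, Hoxd4 by 0.96 and Hoxd3 by 0.90. Both comparisons use the same P1 libraries, so their calls are not independent.

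Markers of other cells varied between the older libraries. The 8 tubule markers summed to 3523 and 299 RPKM at P1, against 344 and 135 RPKM at E16.5, and to 4.88 to 10.46 RPKM at younger ages. The 12 stroma markers summed to 501 and 399 RPKM at P1, against 708 and 206 RPKM at E16.5, and the 10 ureteric bud markers to 324 and 68.1 RPKM at P1, against 363 and 43.3 RPKM at E16.5. The first E16.5 library thus had the highest stroma and ureteric bud sums of the primary libraries, and the first P1 library the highest tubule sum. Their part in the Hox result was not tested. Without the first or second E11.5 library or without the first P1 library, 5, 6 or 5 members were called between P1 and E11.5. Between P1 and E16.5, 1 member was called without either E16.5 library or without the first P1 library. Of the calls against E11.5 other than Hoxb1, those of Hoxc8, Hoxd3, Hoxd4 and Hoxd12 held under every alternative run. Of those against E16.5 only that of Hoxc8 did.

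Genes that work with Hox proteins are counted against the 35.1% of all genes called between P1 and E11.5 cells, and no list was tested as a whole. Of 9 cofactors 5 were called, 4 lower and 1 higher. Meis3 fell by 2.21, Pbx2 by 1.63 and Meis1 by 0.81, and Pknox2 rose by 0.62. Of 22 Polycomb genes 7 fell and 2 rose, a share near that of all genes, with Cbx2 at −1.81, Phf19 at −1.61 and Cbx7 at 1.39. Of 9 MLL and demethylase genes 6 fell and none rose, led by Men1, the menin subunit, at −1.14. Of 9 kidney partners Osr1 fell by 2.58, and Itga8 and Wt1 rose by 1.22 and 0.72. Hotair, a non-coding RNA of the Hoxc cluster, had 2.88 and 2.63 RPKM at P1, against 0.456 and 0.737 RPKM at E11.5 (1.24), and Hoxa11os fell by 0.96. Of 9 other trunk homeobox genes 2 rose and 3 fell, Emx2 by 1.88 and Meox2 by −1.75 among them.

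The lines were compared with primary NPCs of their ages of origin, which asks whether culture keeps the Hox code. At both passages all 9 tested Hoxb genes were called lower. Of these, Hoxb1 entered the fit through primary libraries alone and so had to differ, and the P20 calls of Hoxb1 and Hoxb9 are lost with the layout term described below. The 8 line libraries held 97.3 to 234 RPKM of Hoxb transcripts, against 352 to 557 RPKM in primary NPCs, as the plot of cluster sums shows. Hoxa3 to Hoxa6 fell too, while the 10 paralogues did not pass and Hoxa11 rose. Paralogues 9 to 13 made up 66.4 to 76.2% of all Hox RPKM in the lines, against 48.9 to 56.4% in primary NPCs. Both passages are set against the same primary libraries, so the P20 and P80 results are not independent of each other.

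At P20, 19 of 35 tested members were called, 17 lower and 2 higher, when 36.1% of all genes were (21.6% lower, 14.5% higher). At P80, 23 of 35 were called, 20 lower and 3 higher, when 39.3% of all genes were (24% lower, 15.3% higher). By cluster the calls at P20 were 6 of 10 Hoxa, 9 of 9 Hoxb, 2 of 7 Hoxc and 2 of 9 Hoxd genes. At P80 they were 8 of 10, 9 of 9, 3 of 7 and 3 of 9. Leaving out Hoxb1, at 1 RPKM in primary libraries alone, and Hoxd13, at 1 RPKM in line libraries alone, 18 of 33 were called at P20, 16 lower and 2 higher, and 21 at P80, 19 lower and 2 higher. The median log2 fold change of the members was −0.62 at P20 and −0.80 at P80, against −0.11 over all genes at each passage. Trimmed-mean scaling brings the median of all genes to −0.01 and the share of higher calls among all called genes to 53.3% at P20 and 51.8% at P80, against 40.2% and 38.9% without it.

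Hoxb6 fell most. Ranges of primary NPCs cover all 10 libraries, including E12.5, which has no line and is not in this fit. In the 4 lines, ordered by age of origin from E11.5 to P1 here and below, it had 4.70, 7.32, 32.5 and 17.7 RPKM at P20 and 6.34, 6.64, 26.8 and 4.20 RPKM at P80, against 54.2 to 131 RPKM in primary NPCs. No line reached the lowest primary library. The log2 fold change was −2.88 ± 0.36 at P20 (SE, 4 lines, limma adjusted p = 5.544e-05) and −3.35 ± 0.36 at P80 (limma adjusted p = 1.719e-05). Hoxb4, which expands blood stem cells when overexpressed, had 2.90, 2.87, 8.69 and 8.13 RPKM at P20 and 3.47, 4.79, 9.65 and 3.92 RPKM at P80, against 23.4 to 33.7 RPKM in primary NPCs. Its fold changes were −2.15 at P20 and −2.14 at P80, and its ranges were again separate.

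Hoxb9 depended on the line. It had 10.5, 18.0, 49.9 and 39.8 RPKM in the 4 lines at P20 and 8.54, 1.52, 48.7 and 6.997 RPKM at P80, against 53.0 to 88.5 RPKM in primary NPCs. It was higher in both libraries of the E16.5 line and in the P1 line at P20 than in the others, though below every primary library. Its log2 fold change was −1.39 at P20 (limma adjusted p = 0.03063, a call lost under 8 alternatives) and −2.78 at P80 (limma adjusted p = 0.0004456). Hoxb8, whose promoter is shown above, had 7.72, 7.51, 19.7 and 17.5 RPKM at P20 and 7.83, 10.9, 18.6 and 7.88 RPKM at P80, against 22.6 to 63.2 RPKM in primary NPCs (−1.66 at P20, −1.82 at P80).

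Hoxb2 was the highest Hoxb member in 5 of the 8 line libraries, with 24.7 to 41.5 RPKM in the lines, against 51.2 to 103 RPKM in primary NPCs (−1.26 at P20, −1.07 at P80). Hoxb1 was at 0 to 0.101 RPKM in all 8 line libraries, including the lines from E11.5 and E13.5, whose primary cells had 1.82 to 12.9 RPKM (−1.66 at P20, −1.62 at P80). Hoxb3, Hoxb5 and Hoxb7 changed by −1.56, −1.67 and −0.81 at P20 and by −1.68, −1.99 and −0.91 at P80.

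In the Hoxa cluster, Hoxa5, which is needed for lung and neck development, had 9.93, 5.83, 15.4 and 10.8 RPKM at P20 and 7.01, 8.80, 19.0 and 6.74 RPKM at P80, against 31.9 to 62.1 RPKM in primary NPCs (−1.84 at P20, −1.90 at P80). Every line library was below every primary library. Hoxa4 changed by −1.39 and −1.67, Hoxa6 by −1.02 and −1.36 and Hoxa3 by −0.87 and −0.95 at P20 and P80, and Hoxa7 and Hoxa2 by −0.96 and −0.80 at P80 alone. At the head end of Hoxd, Hoxd3 changed by −1.4995 and −1.14 and Hoxd4 by −1.27 and −0.99. Hoxd4 was at 9.06 to 14.02 RPKM in the lines, against 10.5 to 33.2 RPKM in primary NPCs, so these ranges overlap at P1. Of the Hoxc genes, Hoxc5 changed by −0.65 and −0.91, Hoxc9 by −0.53 and −0.74, and Hoxc4 by −0.70 at P80. The P20 calls of Hoxc9 (limma adjusted p = 0.04658) and Hoxc5 were lost under 15 and 3 alternatives.

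Hoxa11 and Hoxd13 lie towards the tail ends of their clusters. Hoxa11 had 116, 113, 89.993 and 99.7 RPKM at P20 and 107, 86.2, 88.3 and 108 RPKM at P80, against 48.3 to 93.2 RPKM in primary NPCs. The ranges overlap, and the log2 fold change was 0.58 at P20 (limma adjusted p = 0.00497) and 0.47 at P80 (limma adjusted p = 0.01398, a call lost with the layout term and without the P1 line at P80). Hoxd13 had 12.9, 6.78, 0.145 and 5.84 RPKM at P80, against 0 to 0.535 RPKM in primary NPCs, given as a description because it entered the fit through line libraries alone. It was high in the E11.5, E13.5 and P1 lines and not in the E16.5 line. At P20 it had 15.2, 1.17, 0.0732 and 0.478 RPKM.

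The 10 paralogues did not pass at either passage. Hoxa10 was at 88.4 to 137 RPKM in the lines, against 82.4 to 162 RPKM in primary NPCs (−0.15 at P20, 0.07 at P80). Hoxd10 was at 72.6 to 141 RPKM in the lines, against 88.4 to 118 RPKM in primary NPCs (−0.10 and 0.11). Hoxc10 was at 75.01 to 181 RPKM in the lines, against 88.8 to 145 RPKM in primary NPCs (0.10 and −0.13). Hoxd11 (−0.17 and 0.06) and Hoxc11 (−0.55 and −0.70) did not pass either, and Hoxc11 had 3.38 to 9.03 RPKM in the lines, against 5.33 to 15.6 RPKM in primary NPCs.

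**Figure D2:**
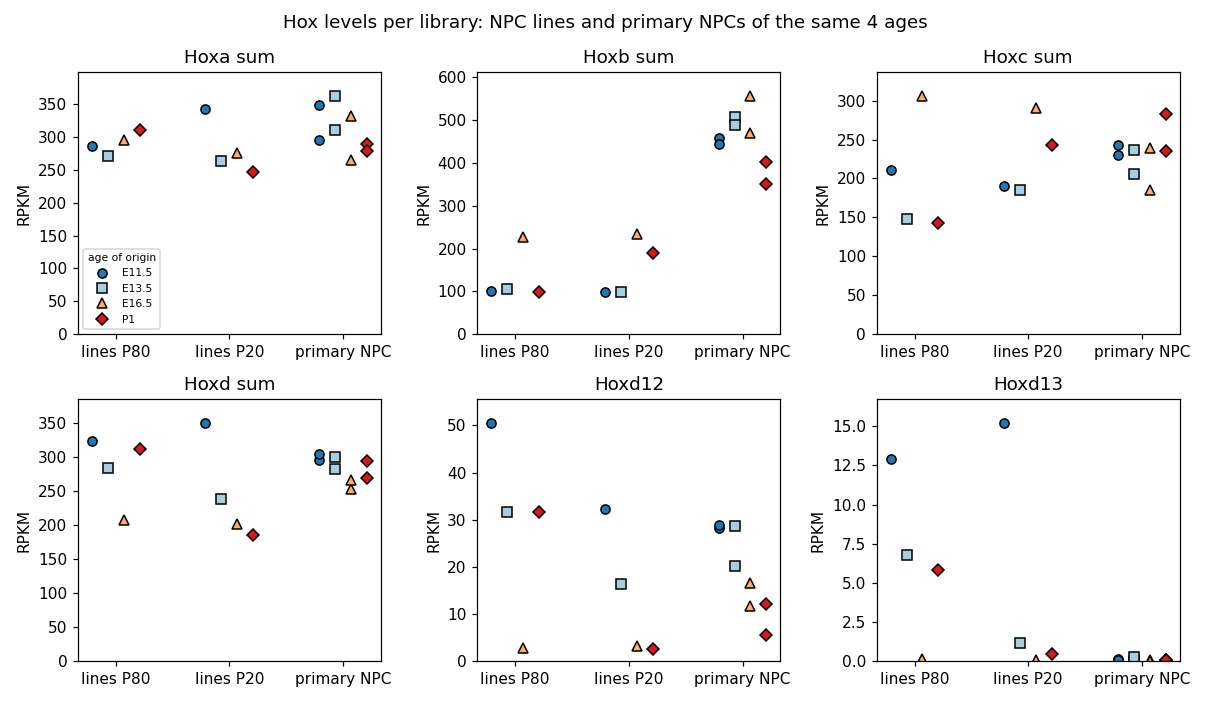
Summed RPKM of each cluster, and RPKM of Hoxd12 and Hoxd13, in lines at P80, lines at P20 and primary NPCs of the same 4 ages, with a point per library and a symbol per age of origin. The Hoxb sums of all lines, 97.3 to 234 RPKM, lie below those of all primary libraries, and the P1 line at P80 sits with the E11.5 and E13.5 lines in Hoxb, Hoxd12 and Hoxd13.

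Genes that work with Hox proteins were counted here too, beside the 36.1% and 39.3% of all genes called at P20 and P80. Of 9 cofactors 5 fell and 1 rose at P20, and 4 fell and 1 rose at P80, with Meis2 at −2.13 and −1.14. Of 22 Polycomb genes 4 fell and 2 rose at P20, and 6 fell and 3 rose at P80, with Phf19 at −1.22 and −1.43 and Rbbp7 at 0.62 and 0.80. Of 9 MLL and demethylase genes 1 rose, Kdm6b, and 1 fell, Ash2l, at each passage. Of 9 kidney partners 3 fell and 1 rose at each passage. Pax2 changed by −2.29 and −4.28, but the lines were not alike. It had 2.57, 15.1, 69.7 and 73.3 RPKM at P20 and 2.39, 0.241, 59.7 and 3.77 RPKM at P80. Primary NPCs had 68.6 to 161 RPKM, so the E16.5 and P1 lines at P20 lay within their range. Hoxa11os rose by 0.66 and Hotair fell by 0.60 at P20, and no cluster non-coding RNA passed at P80. Of 9 other trunk homeobox genes 4 fell and 1 rose at each passage, with Meox1 at −5.41 and −4.96.

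Leaving out each library in turn gave 15 to 20 calls at P20 and 20 to 24 at P80, with 21 at P80, 18 lower and 3 higher, without the P1 line at P80. The table's last lines have a shifted layout in some libraries, which includes all P80 libraries and none at P20. With that layout as a term 14 members were called at P20, 13 lower and 1 higher. The 12 stroma markers summed to 32.8 to 162 RPKM in the lines, against 89.2 to 708 RPKM in primary NPCs, and their part in the result was not tested.

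Between P80 and P20 of lines with the same label no member of 34 tested was called by limma, and none of the 12129 genes in the fit was (0%). At an unadjusted p under 0.05, 2 members and 1482 genes stood. Single lines still shifted. Hoxb9 in the E13.5 line had 1.52 RPKM at P80, against 18.0 RPKM at P20. In the P1 line Hoxb9 had 6.997 RPKM at P80, against 39.8 RPKM at P20, and Hoxd12 31.7 RPKM, against 2.57 RPKM. Those P80 libraries are the ones with 0.029 and 0.038 RPKM of Eif2s3y. Whether they share a line with the P20 libraries of the same label was not tested. The absence of calls therefore does not show stability over passages.

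Lines of late origin (E16.5 and P1) were set against lines of early origin (E11.5 and E13.5), with P20 and P80 of a line averaged. No member was called by limma, when 0.0441% of all genes were (0.0294% higher, 0.0147% lower), and 11 members and 1158 genes had an unadjusted p under 0.05. With the P20 libraries alone 5 members were called, and with P80 alone none. The shares above are not those of these runs. With P20 alone far more genes were called in all, as given in the last section. Representing the P1 line by its P20 library alone, an alternative chosen after seeing the data, gave 9 calls, 6 higher and 3 lower, among 541 genes in all. The library it leaves out was singled out by its Hox values, so that count is a description of the remaining libraries and carries no weight as a test.

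The levels differed by line and, for the P1 line, by passage. Hoxb9 had 39.8 to 49.9 RPKM in the E16.5 line and the P1 line at P20, against 1.52 to 18.0 RPKM in the early lines. Hoxd12 had 2.57 to 3.19 RPKM in those 3 late libraries, against 16.3 to 50.5 RPKM in the early lines. Hoxd13 had 0.0732 to 0.478 RPKM in the 3 late libraries, against 1.17 to 15.2 RPKM in the early lines. The P1 line at P80 lay with the early lines in all of them, at 6.997 RPKM of Hoxb9, 31.7 RPKM of Hoxd12 and 5.84 RPKM of Hoxd13. The stroma markers summed to 32.8 to 37.5 RPKM in the 3 late libraries, against 81.6 to 162 RPKM in the early lines and the P1 line at P80, and their part was not tested.

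In primary NPCs the same late against early contrast called 5 members, all lower, when 24.7% of all genes were called, 9.52% lower. Of all calls 61.5% were higher, against 51.2% under trimmed-mean and 38.5% under quantile scaling. The members called were Hoxb1 (−2.45), Hoxd12 (−1.21), Hoxc11 (−0.78), Hoxd1 (−0.57) and Hoxa11 (−0.47). Among the primary libraries fitted, Hoxb1 and Hoxd1 reached 1 RPKM in early ones alone, so their values are given as a description. The call of Hoxc11 held under every alternative run, and those of Hoxd12, Hoxd1 and Hoxa11 were lost under 7, 6 and 4. Of the lists, 3 of 9 cofactors fell, 6 of 22 Polycomb genes fell and 3 rose, and 2 of 9 MLL and demethylase genes fell. The difference between lines and primary NPCs in this contrast was tested directly and called no member, when 0.713% of all genes were called (0.132% higher, 0.58% lower), with 9 members and 2446 genes at an unadjusted p under 0.05. With the P1 line represented by P20 alone, 7 members were called, 6 higher and 1 lower, with the same limit on that count. The 0.713% is not the share of that run, which called more genes in all, as given in the last section. Without single libraries 2 to 12 members were called in the primary contrast: 12 without the second E16.5 library, and 2 without either E11.5 library, without the second E13.5 or without the second P1 library.

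Removal of single medium components was compared with the other withdrawals of the same day, with 1 library per condition and so no test and no p-value. A member is described as past the fold where its log2(RPKM + 1) differed by at least 1 from the median of the other libraries in the same direction on both days. Removing BMP7, a growth factor that keeps NPCs alive and dividing, set the Hox genes apart. Of 32 members examined 17 were lower past the fold and none higher, when 6.82% of all genes were past it, 3.03% lower and 3.79% higher. They were all 8 Hoxb and all 7 Hoxc genes examined, with Hoxd12 and Hoxd13 of 8 Hoxd genes and none of 9 Hoxa genes. Among them, Hoxb5, Hoxb6, Hoxb8, Hoxb9, Hoxc4, Hoxc5, Hoxc8, Hoxc11 and Hoxd13 were under 1 RPKM in both BMP7 libraries. Those genes were examined through the other withdrawals alone and could pass the fold only as lower, so they are a description. The rest, Hoxb2, Hoxb3, Hoxb4, Hoxb7, Hoxc6, Hoxc9, Hoxc10 and Hoxd12, reached 1 RPKM in at least 1 BMP7 library.

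The cluster sums, drawn as stacked bars, show the split. Without BMP7, Hoxb summed to 10.4 RPKM on day 4 and 4.98 RPKM on day 8, against 50.3 to 123 RPKM in the other withdrawals. Hoxc summed to 13.0 and 3.62 RPKM without BMP7, against 58.4 to 178 RPKM in the others. Hoxa summed to 189 and 199 RPKM without BMP7, within the 138 to 211 RPKM of the others, and Hoxd to 132 and 159 RPKM, against 221 to 447 RPKM in the others. The median log2 difference on days 4 and 8 was −2.20 and −2.53 for Hoxb, −2.58 and −3.08 for Hoxc, −0.84 and −0.71 for Hoxd, and −0.13 and 0.21 for Hoxa. Over all genes it was 0 and −0.02. Members at 1 RPKM or more in both BMP7 libraries numbered 19, against 31 in every other withdrawal library.

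The 10 paralogues went separate ways. Hoxc10 had 6.18 RPKM on day 4 and 1.37 RPKM on day 8 without BMP7, against 31.7 to 95.1 RPKM in the other withdrawals, with log2 differences of −3.60 and −4.76. Hoxa10 had 72.3 and 69.7 RPKM without BMP7, against 53.5 to 79.5 RPKM in the others (−0.13 and 0.29). Hoxd10 had 56.6 and 55.2 RPKM without BMP7, against 68.6 to 158 RPKM in the others (−0.90 and −0.76). Hoxc10 therefore lay below every other library, Hoxa10 within their range and Hoxd10 below it by less.

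The 11 paralogues split likewise. Hoxc11 had 0.301 RPKM on day 4 and was listed at 0 on day 8 without BMP7, against 1.75 to 8.83 RPKM in the others. Hoxa11 had 77.2 and 76.3 RPKM without BMP7, against 50.2 to 88.1 RPKM in the others (−0.09 and 0.12). Hoxd11 had 29.2 and 30.0 RPKM without BMP7, against 43.6 to 79.2 RPKM in the others (−1.02 and −0.74), past the fold on day 4 alone. Beyond it in the cluster, Hoxd12 had 1.36 and 1.32 RPKM without BMP7, against 7.78 to 41.3 RPKM in the others (−3.89 and −3.58). Hoxd13 had 0.188 and 0.0999 RPKM without BMP7, against 2.57 to 10.6 RPKM in the others (−3.16 and −2.58). Of the 8 Hoxd genes examined, only these last 2, at the tail end, were past the fold on both days.

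Of the Hoxb genes, Hoxb2 had 3.42 and 1.96 RPKM without BMP7, against 18.0 to 42.6 RPKM in the others (−2.87 and −3.64). Hoxb5 had 0.380 and 0.269 RPKM without BMP7, against 5.86 to 17.8 RPKM in the others (−3.12 and −3.74). Hoxb7 had 2.67 and 0.695 RPKM without BMP7, against 7.96 to 20.28 RPKM in the others (−2.24 and −3.30). For these 3 the BMP7 libraries lay below all others on both days. Of the Hoxc genes, Hoxc4 had 0.753 and 0.256 RPKM without BMP7, against 6.27 to 19.3 RPKM in the others (−3.04 and −3.83), and Hoxc9 had 2.48 and 0.639 RPKM without BMP7, against 8.52 to 24.4 RPKM in the others (−2.33 and −3.49).

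How many members the other components put past the fold depended on what they were set against. With the mean of the others in place of the median, 10 members were past it for heparin, 8 for Y27632, 12 for LIF and none for CHIR. That mean includes the BMP7 library. No share of all genes is given for it, so whether these counts stand out cannot be said. Against the median, CHIR removal put 1 member past the fold, Hoxc6, at −1.01 and −1.05, when 1.74% of all genes were past it, 0.501% lower. Hoxc6, a thoracic patterning gene, had 9.91 and 5.34 RPKM without CHIR. The CHIR libraries had the lowest Hoxb sums of the others, 50.3 and 55.5 RPKM. Y27632 removal put Hoxc6 past the fold in the other direction, at 1.504 and 1.33 with 30.0 and 20.5 RPKM. Of all genes 1.72% were past it, 0.851% higher and 0.868% lower. On day 4 the median of the others was the CHIR library, at 9.91 RPKM, so the Hoxc6 values of CHIR and Y27632 are not independent. Without a library of complete medium, a rise on Y27632 removal cannot be told from a fall in the others. Heparin removal put none past it, when 1.54% of all genes were (0.667% higher, 0.876% lower). LIF removal, with day 8 alone, put 4 members higher, when 7.3% of all genes were past the fold, 4.18% higher and 3.12% lower. Hoxd9 stood at 141 RPKM (1.33), with Hoxc11 at 1.16, Hoxd3 at 1.04 and Hoxb9 at 1.03. The same 9 libraries serve as each other's comparison, so these counts are not independent.

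Few of the genes that work with Hox proteins passed the fold. Without BMP7, none of 9 cofactors, none of 21 Polycomb genes and none of 9 MLL and demethylase genes was past the fold. Of the kidney partners 1 was, Sall1, which is needed for ureteric bud invasion, with 2.24 and 1.64 RPKM without BMP7, against 6.05 to 28.4 RPKM in the others. Six2 had 133 and 130 RPKM without BMP7, against 74.2 to 251 RPKM in the others. Of 7 other trunk homeobox genes Meox1 was higher (4.04 and 2.66) and Uncx lower (−2.31 and −3.02). The 8 tubule markers summed to 1631 RPKM on day 4 without BMP7, against 377 to 511 RPKM in the other day 4 libraries. On day 8 they summed to 1256 RPKM, against 121 to 2201 RPKM in the others. Spp1 alone had 1625 and 1251 RPKM of these sums, while Atp1b1 had 5.67 and 3.96 RPKM, against 9.65 to 74.3 RPKM in the others. Umod, Slc12a1 and Slc34a1 were at 0 in both sets. The 12 stroma markers summed to 367 to 446 RPKM without BMP7, against 172 to 555 RPKM in the others. The 9 cap mesenchyme markers summed to 361 to 431 RPKM, against 288 to 797 RPKM, but did not move together. Meox1 and Uncx, given above, are among them, and Cited1 had 6.36 and 2.76 RPKM without BMP7, against 45.3 to 200 RPKM in the others. Single stroma markers, picked after their values were seen, lay apart from all others in both directions. Col3a1 had 176 and 241 RPKM without BMP7, against 2.72 to 33.9 RPKM in the others, and Foxd1 2.28 and 3.51 RPKM, against 0 to 0.316 RPKM. Col1a1 had 1.37 and 1.83 RPKM without BMP7, against 7.64 to 25.0 RPKM in the others, and Cxcl12 19.1 and 17.9 RPKM, against 92.0 to 198 RPKM. The part of the tubule, stroma and cap mesenchyme markers in the Hox result was not tested.

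The study's deposited list of 1217 NPC signature symbols names 5 members, Hoxa11, Hoxb1, Hoxb2, Hoxd12 and Hoxd13. That list may have been chosen on these libraries, so it is not independent evidence. Hoxa11, Hoxb1 and Hoxb2 were among the members lower in Six2-negative cells, and Hoxd13 was the one higher there, while Hoxd12 had 9.49 and 13.7 RPKM in Six2-negative cells, against 20.23 and 24.2 RPKM in E12.5 NPCs, and did not pass.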

How the data were processed

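The 20 libraries of primary NPCs, Six2-negative cells and lines were made from poly(A) RNA. Their reads were aligned by STAR and turned into gene values by Cufflinks on mm9, per the submitters' processing notes, without versions. How the 9 total RNA withdrawal libraries were aligned and counted, and on which build, is not given in the sources used here. From both sets the authors deposited RPKM values for 23947 table lines. The 2 last lines, shifted in 18 libraries, and 27 symbols turned into dates were left out. RPKM corrects for transcript length and read total alone, so very abundant transcripts lower the values of others. Depth was estimated from low values; 40.2 to 52.2% of those lay within 0.1 of a whole read number, so counts were not recovered and no count test was run.

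Differences were tested with limma 3.58.1 (R 4.3.3) on log2(RPKM + 1), which understates fold changes of low genes, with a variance trend, two-sided, over genes that reached 1 RPKM in 2 or more of the libraries fitted. Genes with a Benjamini-Hochberg adjusted p under 0.05 were called. Each log2 fold change in the text comes from the fit of its comparison: 12 primary and Six2-negative libraries (13574 genes), 8 primary and 8 line libraries with age of origin as a term (13612 genes), or 8 primary libraries and 4 line averages. P80 against P20 used the line as block, since both passages are labelled as the same line (12129 genes). Withdrawal libraries were described without a test over 11988 genes (12513 for LIF). The fits were also run on simulated libraries, with independent noise set by the spread of primary replicates and changes only in genes well above the floor. The outcome is not reported here and is no support for results on lines or low genes. Tables were handled in Python 3.11.15 with pandas 2.3.3 and numpy 2.4.6.

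The members, lists and tests were chosen with earlier results of these data known. By rule the text names up to 12 called members per comparison by fold change and always the 10 and 11 paralogues, and up to 4 called genes per list. Further called members were added after their values were seen, so that each is accounted for. The lists are Hox cofactors, Cdx factors, Polycomb genes, MLL and H3K27 demethylase genes, kidney partners of the 11 paralogues, cluster non-coding RNAs and other trunk homeobox genes. Alternatives were another pseudocount, no filter, trimmed-mean and quantile scaling, a replicate block, a layout term and leaving out single libraries. Some genes that this rule selects are counted but not reported here.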

Additional observations from a re-analysis of the deposited data

Results flagged for a closer look

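In 65 sets of a member's values over the 4 lines at 1 passage, 2 had a line whose gap to the nearest of the other lines on the log2 scale took up an unusually large share of the whole range, above Dixon's 95% critical value for 4 values. Chance gives about 1 in 20 such sets. Hoxb5 at P80 had 24.9 RPKM in the E16.5 line, against 9.63 to 10.2 RPKM in the other lines, a gap share of 0.944. Hoxa6 at P80 had 1.52 RPKM in the E16.5 line, against 0.274 to 0.375 RPKM in the others, a gap share of 0.889.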

How the results depend on the processing

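No called value changed sign, while 29 values of 17 uncalled results, of at most 0.32 on the log2 scale as reported, did. Of 1788 values of single genes under the alternatives, 1624 kept their side of the threshold, 145 lost the call, 13 gained one and 6 untested ones moved. Leaving out each library in turn gave 4 to 11 called members for Six2-negative cells, 5 to 12 for P1 against E11.5, 1 to 9 for P1 against E16.5, 2 to 13 for the F test, 15 to 20 at P20, 20 to 24 at P80, 0 for P80 against P20, 0 to 4 for late against early lines, 2 to 12 for late against early primary NPCs and 0 to 2 for the difference between the last pair. Where 1 library is left in a group it is assumed to vary like the others. Quantile scaling gave 4 members for P1 against E16.5. With P20 libraries alone, late against early lines gave 5 members and the difference 4. With the P1 line by its P20 library alone they gave 9 and 7. Without BMP7, 14 to 17 members were past the fold. Taking the mean of the other withdrawals put 10 past it for heparin, 8 for Y27632, 0 for CHIR and 12 for LIF, given without a share of all genes. A pseudocount of 0.1 gave 1 for heparin and 2 for CHIR, and trimmed-mean scaling 0 for CHIR. Over all genes, late against early lines called 6, but 17 with that pseudocount, 23 with no filter, 344 with P20 alone and 541 with the P1 line by P20. The difference called 97 genes, but 225 with that pseudocount, 57 with quantile scaling, 378 with P20 alone, 27 with P80 alone and 712 with the P1 line by P20. Among all genes its share of higher calls was 18.6%, and 38.6% under quantile scaling. Late against early primary NPCs called 1667 genes under the block, against 3367. Deviations of samples with the same replicate number correlated at −0.109 to 0.374 over the pairs of groups. Not every pair was above 0.1, so the numbers were not taken to pair the samples. With the replicate block 15 members were called for Six2-negative cells, 12 for P1 against E11.5, 6 for P1 against E16.5, 10 by the F test and 4 for late against early primary NPCs. It ended the calls of Hoxa2 (P1 against E16.5) and Hoxd1 (late against early primary NPCs). Without the block of line, P80 against P20 called 0 members and 1 gene. No paired fit was made of lines against primary NPCs, since lines carry no replicate number. The cause of these changes was not tested.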
